A study of Homo sapiens with 6 samples.

Results

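The G1 cyclins, their kinases and the kinase inhibitors of the CIP/KIP family were examined in Hep3B cells with and without knockdown of DAGLA, the gene of the lipid enzyme diacylglycerol lipase alpha. The set was defined by name and holds 10 of the 29908 genes in the expression table. Its members were the D cyclins CCND1, CCND2 and CCND3, the E cyclins CCNE1 and CCNE2, the kinases CDK2, CDK4 and CDK6, and the inhibitors CDKN1A (p21) and CDKN1B (p27). All 10 were found by gene identifier.

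D cyclins are made in response to growth signals and activate CDK4 and CDK6, which start the phosphorylation of the retinoblastoma protein and its relatives. This releases E2F factors, which drive genes for DNA synthesis and the E cyclins. Cyclin E then activates CDK2 and carries the cell into S phase, while p21 and p27 bind cyclin E-CDK2 and block it.

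Hep3B is an established human hepatocellular carcinoma line. Hep3B-Con cells were infected with a control lentivirus, called shControl in one label and an empty vector in another. Hep3B-KD cells were infected with a lentivirus that carries a short hairpin RNA against DAGLA. By the labels both groups received virus at a multiplicity of infection of 5, and puromycin was then used to obtain stable cells. Total RNA of 3 biological replicates per group was sequenced. The study lists 1 hairpin target for DAGLA, and the medium is DMEM in the labels but MEM-alpha in the study's methods. With 1 hairpin, the p-values below measure the spread between replicates, not between different hairpins against DAGLA.

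The hairpin is shown because it defines Hep3B-KD. Its target lies on chromosome 11 of GRCh38 (chr11:61740504-61740522, plus strand), in the coding part of exon 18 of the 20 exons of the transcript DAGLA-201, and DAGLA is the only gene with this exact match among the transcripts of GENCODE release 29. The target and the guide strand are written 5′ to 3′. The study gives no guide strand, so the guide was taken here as the exact reverse complement of the target. A guide with another end would have another seed. Capitals in the guide mark its seed, bases 2 to 8, and capitals in the target mark the bases that pair with it.
DAGLA target: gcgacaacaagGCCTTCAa
guide strand: tTGAAGGCcttgttgtcgc
The seed match GCCTTCA was found in the longest annotated 3′ UTR of 0 of the 10 members. Of the 11189 tested genes with a 3′ UTR of at least 50 bases, 1628 (14.6%) held it.

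The deposited values are FPKM, that is read numbers divided by exon length and by library size, so levels can be compared between genes. Between 15861039 and 17572714 reads per library lay behind them. DAGLA was 9.42, 9.40 and 9.02 FPKM in the Hep3B-Con libraries and 4.62, 4.46 and 4.78 FPKM in the Hep3B-KD libraries. The log2 fold change of DAGLA was -0.99 (SE, the standard error, 0.0441, limma adjusted p = 5.25e-06). All 10 hepatocyte markers examined reached a mean of 0.5 FPKM. Their summed level was 3160 to 3218 FPKM in Hep3B-Con and 5424 to 5444 FPKM in Hep3B-KD, mostly ALB and AMBP. Of the 10, 8 were higher and 2 lower at an adjusted p under 0.05, the lower ones being HNF4A (log2 fold change -0.35) and FGB (-0.96). The 2 leukocyte markers found (PTPRC and CD79A) summed to 0.114 FPKM at most and the 3 endothelial markers to 0.385 FPKM at most. The 4 fibroblast markers summed to 3.45 to 3.74 FPKM in Hep3B-Con and 2.44 to 2.48 FPKM in Hep3B-KD. The part of these shifts in the results below was not tested.

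Both E cyclins and CDK6 rose in Hep3B-KD, while CCND1, CCND3, CDK4 and CDKN1A fell. Differences of Hep3B-KD from Hep3B-Con were fitted with limma on log2(FPKM + 0.1). P-values were adjusted by the Benjamini-Hochberg method over all 14221 genes whose mean FPKM reached 0.5. Of the 10 members 9 passed this minimum and CCND2 did not. At an adjusted p under 0.05, 4 of the 9 were higher (CCNE1, CCNE2, CDK6 and CDKN1B) and 5 lower (CCND1, CCND3, CDK2, CDK4 and CDKN1A). Among all genes tested the same threshold called 8521 (59.9%), of which 5133 (36.1%) were higher and 3388 (23.8%) lower, so a called member is not unusual in this comparison. A fold rule took the study's cut-offs, 2-fold or more at an unadjusted P under 0.05, and applied them to this limma fit. By it 0 of the 9 members were called, and DAGLA, at a log2 fold change of -0.99, fell just short. That rule called 1318 (9.27%) of all genes, 881 (6.2%) higher and 437 (3.07%) lower. The study's own counts at the same cut-offs were larger in both directions. The members' log2 fold changes ran from -0.63 to 0.82 with a median of -0.15, beside a median of 0.109 and a middle range from -0.215 to 0.470 for all genes tested.

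The groups did not overlap in any of the 10 members. They were apart in this way for 9517 (66.9%) of the genes tested, 5781 (40.7%) with Hep3B-KD higher and 3736 (26.3%) with Hep3B-KD lower. For a single member an exact two-sided permutation test over 3 libraries against 3 cannot go below p = 0.1, which every member reached. The direction of the whole table depended on the scaling of the libraries. The share of higher genes among those called at an adjusted p under 0.05 was 60.2% as deposited, 48.5% with libraries centred on the median log ratio (4064 higher, 4308 lower) and 52.3% after quantile normalization (4270 higher, 3902 lower). By the fold rule it was 66.8% as deposited, 54.0% centred and 45.0% after quantile normalization. Where it matters, changes are therefore also given relative to the median of all genes tested, which lay at 0.109.

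**Figure D1:**
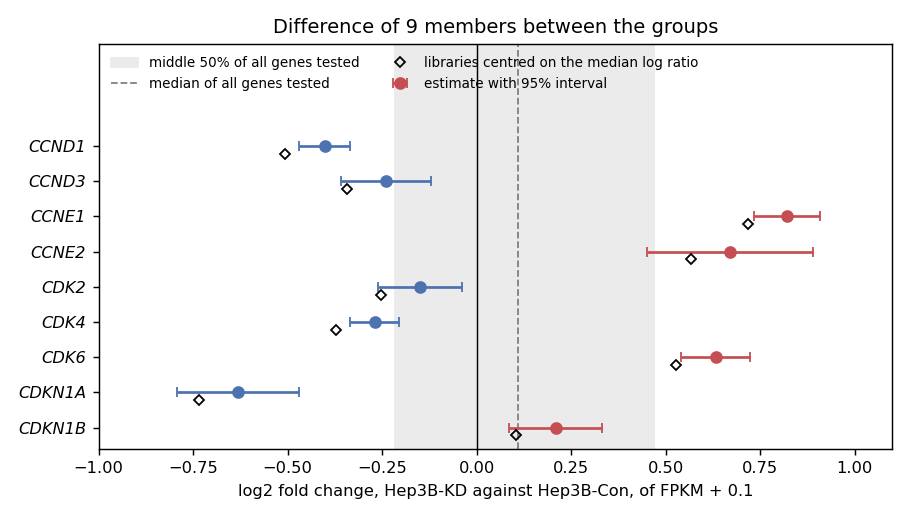
Log2 fold change of the 9 tested members, Hep3B-KD against Hep3B-Con, on the log2(FPKM + 0.1) scale. Filled points are limma estimates with 95% intervals, open diamonds the estimates after centring the libraries on the median log ratio, the dashed line the median of all 14221 genes and the grey band their middle 50%. CCNE1, CCNE2 and CDK6 lie above the band and CCND1, CCND3, CDK4 and CDKN1A below it, while CDK2 and CDKN1B lie inside it.

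CCND1, the D cyclin with the highest level in these cells, fell. CCND1 (ENSG00000110092, chr11:69641087-69654474 on GRCh38, plus strand) was 55.3, 55.6 and 56.6 FPKM in Hep3B-Con and 43.4, 40.7 and 42.6 FPKM in Hep3B-KD. Every Hep3B-KD library was lower than every Hep3B-Con library. The level changed by 0.756-fold, a log2 fold change of -0.40 (SE 0.0284, limma adjusted p = 3.49e-05), which was -0.51 relative to the median of all genes. Between 3158 and 4691 reads per library lay behind these values. Of the exon bases of CCND1, 10.3% overlap LTO1 on the opposite strand, a gene with a mean of 1.97 FPKM.

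CCND3 (ENSG00000112576, chr6:41934933-42050357, minus strand), a D cyclin found in most cell types, was 7.83, 8.08 and 7.45 FPKM in Hep3B-Con against 6.46, 6.40 and 6.89 FPKM in Hep3B-KD. The groups did not overlap. It fell by 0.24 on the log2 scale (SE 0.0496, limma adjusted p = 0.00547), or -0.35 relative to the median of all genes. Within the libraries CCND1 stood at 7.18 times the level of CCND3 in Hep3B-Con and at 6.42 times in Hep3B-KD, a difference of -0.16 in the log2 ratio. The ratios did not overlap between the groups, and a single scaling factor per library leaves them as they are. Quantile normalization did not keep this difference, with log2 fold changes of -0.29 for CCND1 and -0.33 for CCND3.

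CCND2 (ENSG00000118971, chr12:4273772-4305350, plus strand) was close to the limit of detection. It was 0.461, 0.338 and 0.453 FPKM in Hep3B-Con, from 58, 42 and 54 reads. In Hep3B-KD it was 0.255, 0.278 and 0.253 FPKM, from 29, 32 and 30 reads. The Hep3B-KD values were the lower ones, but the gene stood under the expression minimum. In a fit without that minimum over all 29908 genes the log2 fold change was -0.51 with a 95% interval from -1.10 to 0.0889 (limma adjusted p = 0.202). A change of CCND2 was thus not shown at this depth. Of its exon bases 13.8% overlap AC008012.1 on the same strand, so some reads may not be assigned to it with certainty. Relative to CCND1 its level overlapped between the groups, with a difference of -0.25 in the log2 ratio.

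**Figure D2:**
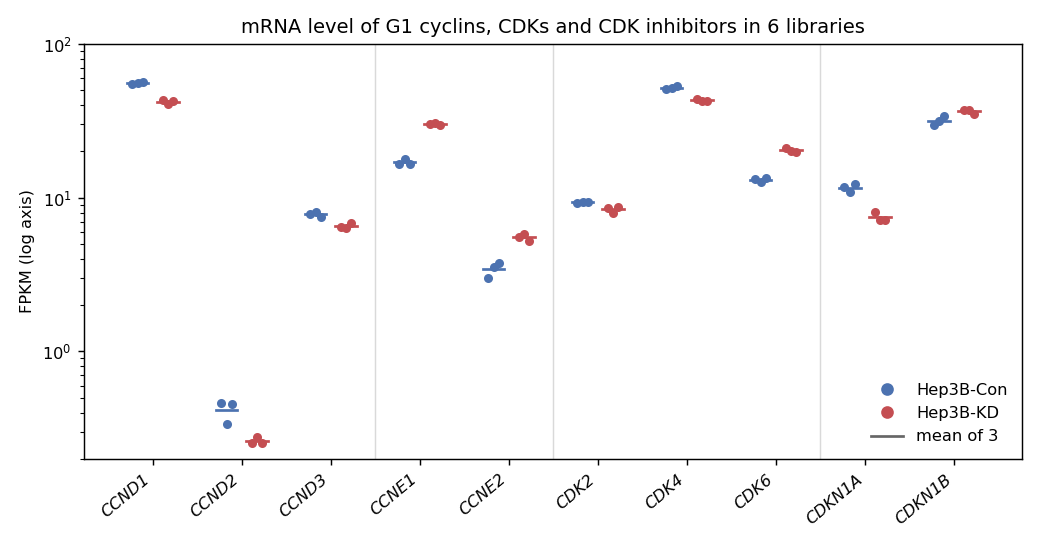
FPKM of the 10 members in each library on a log axis, with Hep3B-Con in blue, Hep3B-KD in red and the mean of 3 libraries as a bar. Levels span from 0.253 FPKM for CCND2 to 56.6 FPKM for CCND1, and in each gene the red and blue points are apart.

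The E cyclins rose. CCNE1 (ENSG00000105173, chr19:29811898-29824308, plus strand), the main cyclin E of these cells, was 16.6, 17.9 and 16.7 FPKM in Hep3B-Con. It was 30.1, 30.6 and 29.8 FPKM in Hep3B-KD, so the lowest Hep3B-KD library lay well above the highest Hep3B-Con library. The change of 1.77-fold was the largest among the members, at a log2 fold change of 0.82 (SE 0.0369, limma adjusted p = 5.51e-06) and 0.71 relative to the median of all genes.

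CCNE2 (ENSG00000175305, chr8:94879770-94896678, minus strand), the second cyclin E, was 3.02, 3.55 and 3.77 FPKM in Hep3B-Con and 5.58, 5.81 and 5.20 FPKM in Hep3B-KD. It also rose in every Hep3B-KD library over every Hep3B-Con library. Its log2 fold change was 0.67 with the widest error of the tested members (SE 0.0914, limma adjusted p = 0.000763). Of its exon bases 37.0% overlap INTS8 on the opposite strand. INTS8, named because of this overlap, went from 6.11 ± 0.273 FPKM to 7.47 ± 0.288 FPKM (SD, n = 3), a log2 fold change of 0.29 (limma adjusted p = 0.00270). Whether the reads were counted by strand is not given in the sources used here, and the part of INTS8 in the values of CCNE2 was not tested. CCNE1 was 4.97 times as high as CCNE2 in Hep3B-Con and 5.47 times in Hep3B-KD, and the library ratios of the groups overlapped.

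The kinases moved in opposite directions. CDK6 (ENSG00000105810, chr7:92604921-92836594, minus strand), a partner of the D cyclins, was 13.3, 12.7 and 13.4 FPKM in Hep3B-Con and 21.2, 20.1 and 19.8 FPKM in Hep3B-KD. The groups were far apart compared with their spread, and CDK6 rose 1.55-fold, at a log2 fold change of 0.63 (SE 0.0383, limma adjusted p = 1.77e-05).

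CDK4 (ENSG00000135446, chr12:57747727-57756013, minus strand), the other kinase of the D cyclins, was 51.0, 51.4 and 53.2 FPKM in Hep3B-Con and 44.1, 42.3 and 42.5 FPKM in Hep3B-KD. It fell in every Hep3B-KD library, at a log2 fold change of -0.27 (SE 0.0271, limma adjusted p = 0.000179), or -0.38 relative to the median of all genes. Quantile normalization gave a smaller fall of -0.15 (limma adjusted p = 0.00603). Its exons overlap those of TSPAN31 on the opposite strand over 43.2% of their length. TSPAN31, named because of this overlap, was at 2.20 ± 0.138 FPKM in Hep3B-Con and 2.45 ± 0.300 FPKM in Hep3B-KD (SD, n = 3), a difference that did not pass the test (limma adjusted p = 0.266).

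The balance of the D cyclin kinases shifted towards CDK6. CDK4 was 3.95 times as high as CDK6 in Hep3B-Con and 2.11 times in Hep3B-KD. The log2 ratio of CDK6 to CDK4 was -1.94, -2.02 and -1.99 in the Hep3B-Con libraries and -1.06, -1.07 and -1.10 in the Hep3B-KD libraries, a difference of 0.91. The groups did not overlap, and a single scaling factor per library leaves the ratio as it is. Under quantile normalization the log2 fold changes were 0.64 for CDK6 and -0.15 for CDK4.

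The promoters of this pair are set side by side because these kinases share the D cyclins and moved in opposite directions. The E-box CACGTG, a motif bound by MYC and related factors, is in capitals. It reads the same on either strand.
CDK4 promoter (GRCh38.p14, chr12:57752261-57752560, minus strand): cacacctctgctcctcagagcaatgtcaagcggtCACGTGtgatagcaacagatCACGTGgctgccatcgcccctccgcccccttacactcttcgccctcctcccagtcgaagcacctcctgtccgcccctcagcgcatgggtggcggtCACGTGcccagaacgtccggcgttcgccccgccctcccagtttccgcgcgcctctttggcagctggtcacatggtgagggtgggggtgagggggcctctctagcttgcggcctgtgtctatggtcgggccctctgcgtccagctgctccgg
CDK6 promoter (GRCh38.p14, chr7:92836524-92836823, minus strand): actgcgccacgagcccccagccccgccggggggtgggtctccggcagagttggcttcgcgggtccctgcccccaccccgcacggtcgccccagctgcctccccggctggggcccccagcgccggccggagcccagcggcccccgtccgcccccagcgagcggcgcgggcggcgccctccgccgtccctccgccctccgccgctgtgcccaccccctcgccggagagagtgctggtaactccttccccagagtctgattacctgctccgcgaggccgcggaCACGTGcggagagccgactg
The CDK4 promoter held 3 E-boxes, at positions -216, -196 and -101 relative to the start. This CDK6 promoter held 1, at position 30, and the other CDK6 promoter in the table held 0. Of all 35116 promoters 7.3% held an E-box, and of the 9 promoters of the members 2 did. A match describes the letters only.

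The promoter of CCNE1 is printed because this member changed most. It covers 250 bases before and 50 after the start of transcription in RefSeq (GRCh38.p14, chr19:29811741-29812040, plus strand), with the GC box GGGCGG, a motif bound by SP1-type factors, in capitals on either strand.
CCNE1 promoter: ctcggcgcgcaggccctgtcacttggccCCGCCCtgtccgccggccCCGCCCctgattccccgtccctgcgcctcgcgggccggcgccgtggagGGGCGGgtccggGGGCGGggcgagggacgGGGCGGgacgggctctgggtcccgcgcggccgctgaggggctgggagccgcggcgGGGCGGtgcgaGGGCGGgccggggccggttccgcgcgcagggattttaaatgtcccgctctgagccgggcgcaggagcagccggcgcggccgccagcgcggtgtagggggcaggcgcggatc
It held 7 GC boxes. Promoters of 6 of the 10 members were matched in the RefSeq table, 9 promoters in all, and 7 of these 9 held a GC box, beside 45.0% of 35116 promoters of the same length. The E2F motifs TTTGGCGC, TTTGCCGC, TTTCGCGC and TTTCCCGC were found on either strand in 0 of the 9 and in 3.3% of all promoters. Other forms of the E2F site were not searched, and these exact strings are rare. The result 0 of 9 therefore does not show that these promoters lack E2F sites. The TEAD motif GGAATG was in 1 of the 9, a promoter of CCND3, and in 14.0% of all. CCND1, CCND2, CCNE2 and CDK2 had no entry.

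CDK2 (ENSG00000123374, chr12:55966769-55972784, plus strand), the partner of cyclin E, was 9.22, 9.38 and 9.37 FPKM in Hep3B-Con and 8.55, 7.90 and 8.74 FPKM in Hep3B-KD. The Hep3B-KD values were lower with a narrow gap between the groups. The log2 fold change was -0.15 (SE 0.0462, limma adjusted p = 0.0278), the weakest evidence among the members called. Centred on the median log ratio it was -0.25. It no longer passed the threshold in 7 of 17 alternative fits, where the adjusted p reached 0.0741, among them the fits that left out each Hep3B-Con library in turn and the fit without Hep3B-KD replicate 2 (log2 fold change -0.11, limma adjusted p = 0.0574). Of its exon bases 14.5% overlap AC025162.1 on the opposite strand.

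The inhibitors also moved apart. CDKN1A (ENSG00000124762, chr6:36676460-36687339, plus strand), which encodes p21, was 11.8, 10.8 and 12.2 FPKM in Hep3B-Con and 8.08, 7.15 and 7.13 FPKM in Hep3B-KD. It fell to 0.643 times its control level, the strongest decrease among the tested members, at a log2 fold change of -0.63 (SE 0.0675, limma adjusted p = 0.000236), or -0.74 relative to the median of all genes.

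CDKN1B (ENSG00000111276, chr12:12715058-12722371, plus strand), which encodes p27, was 29.7, 31.5 and 33.8 FPKM in Hep3B-Con and 37.3, 37.2 and 35.1 FPKM in Hep3B-KD. The values did not overlap, but the highest Hep3B-Con library came close to the lowest Hep3B-KD library. The log2 fold change of 0.21 (SE 0.0513, limma adjusted p = 0.0114) was only 0.10 above the median of all genes. With libraries centred on the median log ratio it was 0.11 and did not pass the threshold (limma adjusted p = 0.122).

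The ratio of p21 to p27 mRNA, which a single scaling factor per library does not change, also differed. CDKN1B was 2.73 times as high as CDKN1A in Hep3B-Con and 4.91 times in Hep3B-KD. The log2 ratio of CDKN1A to CDKN1B was -1.33, -1.54 and -1.47 in the Hep3B-Con libraries and -2.21, -2.38 and -2.30 in the Hep3B-KD libraries, a difference of -0.85 with no overlap. Under quantile normalization the log2 fold changes were -0.70 for CDKN1A and 0.30 for CDKN1B.

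Added up by class, the D cyclins went down, the E cyclins went up, and the kinases and inhibitors kept similar sums with another make-up. The D cyclins summed to 64.0 ± 0.463 FPKM in Hep3B-Con and 49.1 ± 1.47 FPKM in Hep3B-KD (SD, n = 3), and the E cyclins to 20.5 ± 0.956 FPKM and 35.7 ± 0.678 FPKM. D over E cyclin mRNA was 3.25, 2.98 and 3.16 in the Hep3B-Con libraries and 1.40, 1.30 and 1.42 in the Hep3B-KD libraries. The sums of these classes did not overlap between the groups.

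The kinases summed to 74.3 ± 1.43 FPKM in Hep3B-Con and 71.8 ± 1.85 FPKM in Hep3B-KD, and these ranges overlapped. Within that sum the share of CDK6 was 17.7% ± 0.415 in Hep3B-Con and 28.4% ± 0.439 in Hep3B-KD, that of CDK4 69.8% ± 0.357 and 59.9% ± 0.206, and that of CDK2 12.6% ± 0.224 and 11.7% ± 0.548. The inhibitors summed to 43.2 ± 2.42 FPKM and 44.0 ± 1.59 FPKM, also overlapping. The share of CDKN1A in them was 26.9% ± 1.43 in Hep3B-Con and 16.9% ± 0.836 in Hep3B-KD (SD, n = 3 throughout). No test was run on sums and shares.

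**Figure D3:**
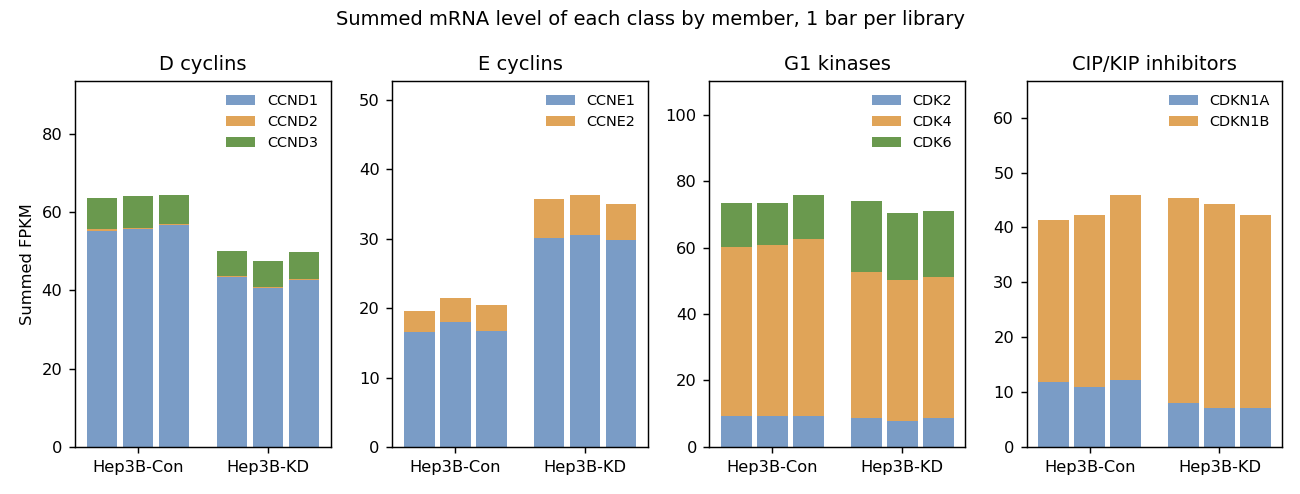
Summed FPKM of the D cyclins, E cyclins, G1 kinases and CIP/KIP inhibitors, with 1 stacked bar per library and a colour per gene, each panel on its own axis from 0. The D cyclin bars are lower and the E cyclin bars higher in Hep3B-KD, while the kinase and inhibitor bars are of similar height with more CDK6 and less CDKN1A.

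The order of the levels was also compared. In Hep3B-Con it was CCND1, CDK4, CDKN1B, CCNE1, CDK6, CDKN1A, CDK2, CCND3, CCNE2 and CCND2 from high to low, and the ranges of neighbours did not overlap. In Hep3B-KD the ranges of CDK4 and CCND1 overlapped at the top, from 42.3 to 44.1 FPKM and from 40.7 to 43.4 FPKM. CDKN1A fell to the level of CDK2, with ranges of 7.13 to 8.08 FPKM and 7.90 to 8.74 FPKM. The other neighbours remained apart. The FPKM lengths count every annotated exon, which lowers the level of genes with many annotated exons, such as CDK6 with 12260 exon bases beside 3168 for CDK4. All values are from bulk RNA, in which fewer cells in a given phase of the cell cycle and less RNA per cell cannot be told apart. The study reported from flow cytometry that the proportion of Hep3B cells in G1 rose with knockdown of DAGLA. The part of that shift in these levels was not tested.

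Other genes of the G1 pathway, with S and M phase genes and stress response genes, were taken from 7 lists. The lists hold 61 genes, called pathway genes below, of which 60 were found and 56 tested. Of the 56, 13 were higher, 25 lower and 18 not called at an adjusted p under 0.05 from limma, beside 36.1% higher and 23.8% lower among all genes tested. With libraries centred on the median log ratio, 10 were called higher and 30 lower. The median log2 fold change of the 56 was -0.08 as deposited. The fold rule was passed upwards by 1 gene (CDKN2C) and downwards by 3 (CDKN2B, TFDP1 and GDF15). The lists overlap in function with the members, so they show the setting in which the members moved and are no separate support for their directions.

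The INK4 inhibitors, which bind CDK4 and CDK6 and keep them from D cyclins, held the widest changes. CDKN2B (p15), an inhibitor induced by TGF-beta, was 11.2, 10.8 and 10.6 FPKM in Hep3B-Con and 2.49, 1.87 and 2.12 FPKM in Hep3B-KD. It fell by 2.29 on the log2 scale (SE 0.0985, limma adjusted p = 4.60e-06). CDKN2C (p18) was 0.892, 1.25 and 1.52 FPKM in Hep3B-Con and 2.64, 2.70 and 2.98 FPKM in Hep3B-KD, a rise of 1.15 on the log2 scale (SE 0.181, limma adjusted p = 0.00154). Its log2 fold change was 0.96 without Hep3B-Con replicate 1, the lowest of its libraries, which is under the fold of 2. The most abundant INK4 gene was CDKN2A, which encodes p16 and, in another reading frame, ARF. CDKN2A was 58.1, 34.9 and 38.8 FPKM in Hep3B-Con and 23.7, 36.7 and 28.3 FPKM in Hep3B-KD. These groups overlapped and the log2 fold change of -0.56 did not pass the test (limma adjusted p = 0.0720), although it did without Hep3B-KD replicate 2 (-0.73, limma adjusted p = 0.0380). Without Hep3B-Con replicate 1 it was -0.34 (limma adjusted p = 0.163), and over the fits that left out 1 library it ranged from -0.73 to -0.34. CDKN2D (p19) had a log2 fold change of 0.21 and was not called.

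Of the 8 genes of the CDK activating kinase, the CDC25 phosphatases that remove inhibitory phosphates from CDKs, and the kinases that add them, 1 was higher and 4 were lower. CDC25A, which acts at the entry into S phase, rose from 12.4 ± 0.735 FPKM to 17.2 ± 0.399 FPKM (SD, n = 3), at a log2 fold change of 0.47 (limma adjusted p = 0.000210). CDC25B, known for its role at the entry into mitosis, fell from 20.8 ± 0.592 FPKM to 12.2 ± 0.531 FPKM, at a log2 fold change of -0.77 (limma adjusted p = 1.11e-05). CDC25C, WEE1 and PKMYT1 also fell, by 0.31, 0.11 and 0.58 on the log2 scale. The CDK activating kinase genes CDK7, CCNH and MNAT1 were not called.

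Of 13 parts of ubiquitin ligases that act on G1 regulators, 4 were higher and 4 lower. SKP2, which with CKS1B recognises phosphorylated p27 for degradation, fell from 62.0 ± 1.59 FPKM to 33.4 ± 0.526 FPKM (SD, n = 3), at a log2 fold change of -0.89 (limma adjusted p = 1.07e-06). CKS1B fell by 0.68 and the adaptor SKP1 by 0.63 on the log2 scale. FBXW7, which recognises cyclin E, rose by 0.32 on that scale (limma adjusted p = 0.0271) and the scaffold CUL1 by 0.27. Of the ligase that acts on p21 during S phase, the scaffold CUL4B rose by 0.71 and the substrate receptor DTL by 0.41, while the adaptor DDB1 fell by 0.24. The other scaffold, CUL4A, had a mean of 39.7 FPKM in Hep3B-Con, beside 6.29 FPKM for CUL4B. CUL4A was not called (log2 fold change 0.011, limma adjusted p = 0.677). These are mRNA levels, and no protein was measured in these files.

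The pocket proteins and E2F/DP factors counted 2 higher and 6 lower of 12 tested. E2F1, an activator of cyclin E and of DNA synthesis genes, rose from 12.5 ± 0.941 FPKM to 22.5 ± 0.316 FPKM (SD, n = 3), at a log2 fold change of 0.85 (limma adjusted p = 2.18e-05). TFDP1, a partner of E2F proteins such as E2F1, fell from 139 ± 3.62 FPKM to 67.9 ± 0.254 FPKM. Its log2 fold change was -1.03 (limma adjusted p = 3.66e-07). E2F3, E2F4, E2F5, E2F7 and RBL2 fell by 0.27 to 0.73 on the log2 scale and TFDP2 rose by 0.23. RB1 stood under the expression minimum at 0.204 ± 0.0255 FPKM in Hep3B-Con and 0.454 ± 0.0218 FPKM in Hep3B-KD.

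Of the S and M phase cyclins and CDK1, all 5 tested genes fell, by 0.15 to 0.63 on the log2 scale with a median of -0.41. CCNA2, the cyclin A of S and G2 phase, fell from 61.0 ± 0.836 FPKM to 41.8 ± 0.410 FPKM (SD, n = 3), and CDK1, the kinase of mitosis, from 34.5 ± 1.05 FPKM to 26.2 ± 0.0994 FPKM. Their log2 fold changes were -0.54 (limma adjusted p = 2.66e-06) and -0.40 (limma adjusted p = 3.47e-05). CCNB1, CCNB2 and CCNF were the others, and CCNA1 stood under the expression minimum.

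Among the transcription regulators known to act on G1 genes, 3 were higher and 2 lower of 7 tested. KLF4 stood under the expression minimum at 0.637 ± 0.143 FPKM in Hep3B-Con and 0.249 ± 0.113 FPKM in Hep3B-KD (SD, n = 3). MYC fell from 95.5 ± 1.01 FPKM to 53.1 ± 1.46 FPKM (SD, n = 3), at a log2 fold change of -0.85 (limma adjusted p = 1.05e-06), and FOXM1, a factor of G2 and M phase genes, by 0.27 on the log2 scale. FOXO3 and FOXO4, factors that act on CDKN1B, rose by 0.33 and 0.52, and KLF6 by 0.20. FOXO1, the FOXO gene with the highest level in Hep3B-Con (mean 9.39 FPKM), was not called (log2 fold change 0.019, limma adjusted p = 0.772). Of stress response genes of growth arrest and cell death 2 were higher and 3 lower of 7 tested. GDF15, a secreted factor of cell stress, went from 155, 124 and 124 FPKM to 33.1, 39.4 and 36.8 FPKM, a fall of 1.87 on the log2 scale (limma adjusted p = 1.21e-05). SESN1 rose by 0.84 and RRM2B by 0.24, while BBC3 and BTG2 fell by 0.67 and 0.35.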

How the data were processed

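RNA-seq values of 3 Hep3B-Con and 3 Hep3B-KD samples were used, grouped by the labels. The authors deposited FPKM values per Ensembl gene and library, with 0 further value columns. The submitters' processing notes name TopHat2 2.0.12, Bowtie2 2.0.6 and GRCh37. All 29908 identifiers were in GENCODE release 29 (GRCh38), and with its exon lengths 100% of the deposited FPKM values gave whole reads within 0.01 that sum to the library totals. Coordinates are those of this release. The counting tool, its annotation and its use of strand are not given in the sources used here.

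FPKM was analysed as log2(FPKM + 0.1) for genes whose mean FPKM reached 0.5, which understates changes of low genes. limma 3.58.1 (lmFit, eBayes with a trend) in R 4.3.3 was fitted to all 14221 such genes without a replicate block. The fit was also run on simulated reads in which only a small set of genes changed. That run does not address the scaling of the libraries, because most genes were unchanged in it. Identifiers were kept as rows, also where 382 of them share a symbol. Members, lists and markers were chosen with earlier results of these data known. Named genes were all members, DAGLA and genes of the 7 pathway lists, plus partners with overlapping exons. Promoters came from RefSeq (GRCh38.p14), and the hairpin target from the study's table of oligonucleotides. FAS, CD3E and CD68 were not analysed here. 1 gene of the pathway lists is not reported here. Tables were handled in Python 3.11.15. Alternatives were other filters, pseudocounts, scalings and variance models, a replicate block, voom on the recovered reads and each library left out.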

Additional observations from a re-analysis of the deposited data

How the results depend on the processing

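CCND1, CCND3, CCNE1, CCNE2, CDK4, CDK6 and CDKN1A kept their direction and an adjusted p under 0.05 in all 17 alternatives. CDK2 lost its call in 7 of them, with an adjusted p of 0.0648 after rescaling to the same FPKM sum, 0.0510 in an ordinary linear model and 0.0559 to 0.0741 in the 4 fits without a library that lost it. CDKN1B lost it when centred on the median log ratio. With these losses the members called lower were 4 or 5 and those called higher 3 or 4. The causes were not tested.

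Genes passing the fold rule upwards were 881 in the fit used here, 1506 without the filter, 260 with a pseudocount of 1 and 498 after quantile normalization. Downwards they were 437, 628 without the filter and 248 with a pseudocount of 1. Of the pathway genes 0 passed it upwards with a pseudocount of 1, after quantile normalization and without Hep3B-Con replicate 1. That compares with 1 in the fit used here and 0 to 1 over the fits without a library. Downwards 3 pathway genes passed it in the fit used here, 4 without the filter and 2 after quantile normalization. CDKN2A passed the adjusted threshold when centred (-0.66, adjusted p = 0.0422) and with voom on the recovered reads (-0.56, adjusted p = 0.00128). After quantile normalization CDKN2D was at -0.028, against the sign reported, and it was not called in any setting.

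The replicate numbers did not pair the samples, as the correlations of same-numbered libraries were -0.0134, -0.0656 and -0.0011. With the replicate number as a block CDK2 had an adjusted p of 0.0564, 4 members were called lower and 4 higher, and 4766 genes were called higher and 3153 lower. CCND2 and RB1 rested on few reads, each under 60 per library.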

Other observations

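The 7-base match to the seed of the assumed guide was absent from the members' 3′ UTRs, but some pathway genes hold it. It was found once in the longest 3′ UTR of CDC25A, WEE1, PKMYT1, SKP2, TFDP2, FOXO3, SP1 and MDM2, in 2 places in SKP1 and in 3 in E2F2. Of these 10 genes, WEE1, PKMYT1, SKP1 and SKP2 were lower in Hep3B-KD, CDC25A, TFDP2 and FOXO3 were higher, and E2F2, SP1 and MDM2 were not called. That is 4 lower and 3 higher of 10, beside 25 lower and 13 higher of the 56 pathway genes tested. Among all genes tested 23.8% were lower and 36.1% higher. The 10 were 17.9% of the 56 pathway genes tested, beside 14.6% of all tested genes with a 3′ UTR of at least 50 bases. The log2 fold changes ran from -0.89 for SKP2 to 0.47 for CDC25A.

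CDKN2A had the widest spread of the INK4 genes between replicates, with 43.9 ± 12.4 FPKM in Hep3B-Con and 29.5 ± 6.60 FPKM in Hep3B-KD (SD, n = 3). CDKN2B, its neighbour in the INK4 family, was at 10.9 ± 0.309 FPKM and 2.16 ± 0.309 FPKM.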
